A study of Homo sapiens with 8 samples.

Results

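The genes described here encode the enzymes that make cholesterol and long-chain fatty acids and the proteins that switch those enzymes on and off. They were chosen by name from textbook pathway membership, 33 genes in all, with earlier results of these data known. The rule itself uses no measured value. The count tables held 31 of them among 17179 gene symbols: 6 of 7 mevalonate enzymes, 12 of 12 enzymes from squalene to cholesterol, 6 of 6 genes of SREBP control and sterol transport, and 7 of 8 fatty acid genes. ACAT2 and ACACA were not analysed here. All 31 passed the filter on low counts, so no member was lost to it.

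Ribosome profiling sequences the pieces of mRNA shielded by ribosomes, and a gene's count of such footprints follows both how much mRNA it has and how heavily that mRNA is translated. The 8 libraries came from 293T, a human embryonic kidney line carrying SV40 large T antigen, grown in high-glucose DMEM with fetal bovine serum, a source of sterols and fatty acids. In the shRNA arm, 2 libraries labelled Scr, given a control for shRNA, stand beside 2 libraries given the non-cleaving short hairpin RNA shNBD1. In the inhibitor arm, 2 libraries labelled NC control, given a control for inhibitors, stand beside 2 libraries given miRNA inhibitors. The study asked about the translation status of cells under each treatment. The labels name neither the inhibited miRNAs nor a dose or time, and do not say that the replicates of a group came from separate cultures, so p-values here carry only library-to-library spread, part or all of which may be technical. No matched RNA libraries were analysed here, so mRNA level and translation cannot be told apart.

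Cholesterol is built from acetyl-CoA by way of mevalonate, isoprenoid diphosphates, squalene and lanosterol. The enzymes of this route, and many of fatty acid synthesis, are transcribed under the SREBP factors, which are made as precursors in the membrane of the endoplasmic reticulum. When sterols are scarce, SCAP escorts the precursors to the Golgi, where proteases release the active factor. When sterols are plentiful, INSIG proteins hold SCAP in the endoplasmic reticulum, and INSIG1 is itself an SREBP target. Promoters of these genes are known for sites of SREBP placed near CCAAT boxes, which bind NF-Y.

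Total counts ranged from 11218980 to 19854218 per library, and the members took between 0.641% and 0.764% of them. The smallest member count was 116, for INSIG2, and the largest 46219, for FASN. Levels are CPM, read counts scaled to library sizes adjusted by TMM. They are not per length, so they are compared between libraries and not between genes. Differences are log2 fold changes ± SE from edgeR's quasi-likelihood test with Benjamini-Hochberg adjustment over 13306 genes. A gene was called at an adjusted p under 0.05. The fit spans all 4 groups, so each SE in the shRNA arm also carries the spread between inhibitor-arm replicates. All 8 listed markers of 293T were detected and summed to between 4904 and 8922 CPM. VIM (3061 to 6169 CPM), KRT8 and KRT18 were the largest. LIN28B lay between 6.70 and 19.8 CPM and NEFM between 0.924 and 1.66 CPM. Of 5 markers of hepatocytes and fat-storing cells, ALB, APOB and PLIN1 were at 0 in some libraries. ADIPOQ lay between 0.818 and 1.28 CPM, and the sum stayed between 1.09 and 1.80 CPM. Markers of blood, endothelium and muscle summed to between 329 and 545 CPM, most of it ACTA2 (291 to 532 CPM). CD68 lay between 10.6 and 38.5 CPM, and PTPRC did not pass 0.102 CPM. The replicates of the inhibitor arm differed more than those of the shRNA arm. The within-group SD of log2 CPM, pooled over all tested genes, was 0.187 in both groups of the shRNA arm. It was 0.215 in the NC control and 0.246 with the inhibitors.

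The first comparison asks how footprints on these genes differ between cells given shNBD1 and cells given Scr. With shNBD1, 8 of 31 members fell and 2 rose, a called share of 32.3%, while 18.3% of all tested genes were called in this comparison, 9.18% higher and 9.15% lower. The members that fell were the sterol enzymes MSMO1, NSDHL, HSD17B7, SC5D and IDI1, the sterol sensor INSIG1, the sterol carrier STARD4 and the desaturase FADS1. LBR and SCAP rose. The median change of the 31 was -0.21, beside 0.001 over all tested genes, and 22 of them had a negative value. Both shNBD1 libraries lay below both Scr libraries for 20 members and above them for 7, against 34.3% and 34.7% of all genes. Some marker genes moved in the same libraries without overlap: VIM averaged 3563 ± 33.2 CPM in Scr and 6033 ± 192 CPM with shNBD1, KRT18 427 ± 3.59 and 692 ± 4.54 CPM, and CD68 38.2 ± 0.344 and 26.7 ± 0.390 CPM (SD, n = 2). Their part in the members' values was not tested.

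MSMO1, the methylsterol monooxygenase that begins removal of the methyl groups at carbon 4 of lanosterol-derived sterols, moved most. Its footprints stood at 59.4 and 53.7 CPM in the Scr libraries and at 21.7 and 19.3 CPM with shNBD1. The groups were far apart relative to the gap between replicates, with means of 56.5 ± 4.06 and 20.5 ± 1.67 CPM (SD, n = 2). The change was -1.47 ± 0.16, a 2.76-fold lower level (adjusted p = 2.70e-04), and MSMO1 was called in all 12 alternative fits of this comparison.

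INSIG1, which retains SCAP when sterols are plentiful, came next. Scr libraries gave 61.9 and 58.0 CPM and shNBD1 libraries 25.9 and 26.2 CPM. Both shNBD1 values were under every value of the other 3 groups, and the change was -1.20 ± 0.18, or 2.30-fold (adjusted p = 0.00176). INSIG1 too was called in all 12 alternatives. Its relative INSIG2 was at 23.0 and 21.4 CPM in Scr and 18.8 and 16.7 CPM with shNBD1, a value of -0.32 ± 0.16 that was not called (adjusted p = 0.189).

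The promoters of 6 called members are shown so that their CCAAT boxes and E-boxes can be read in members that fell and in LBR, which rose; promoter letters were not used to choose the genes. Each line holds the 250 bases before the annotated start, 5′ to 3′ on the gene's strand, from RefSeq on GRCh38.p14. They lie at chr4:165327419-165327668 (plus strand) for MSMO1, chr7:155297628-155297877 (plus) for INSIG1, chrX:152830813-152831062 (plus) for NSDHL, chr5:111512536-111512785 (minus) for STARD4, chr10:1056705-1056954 (minus) for IDI1 and chr1:225428822-225429071 (minus) for LBR. Capitals mark CCAAT, or ATTGG where it is read from the other strand, and CACGTG, an E-box that SREBPs can bind.
MSMO1: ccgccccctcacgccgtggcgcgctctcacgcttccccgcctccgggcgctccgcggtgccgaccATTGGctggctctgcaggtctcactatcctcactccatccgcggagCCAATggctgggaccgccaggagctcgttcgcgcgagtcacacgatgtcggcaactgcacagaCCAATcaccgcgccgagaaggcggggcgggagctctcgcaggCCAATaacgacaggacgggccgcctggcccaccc
INSIG1: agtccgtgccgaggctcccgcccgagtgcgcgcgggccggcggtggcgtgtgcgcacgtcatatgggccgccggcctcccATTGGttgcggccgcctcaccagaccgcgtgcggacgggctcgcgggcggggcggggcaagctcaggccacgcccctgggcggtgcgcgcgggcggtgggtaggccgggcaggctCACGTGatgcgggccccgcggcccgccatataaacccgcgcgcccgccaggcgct
NSDHL: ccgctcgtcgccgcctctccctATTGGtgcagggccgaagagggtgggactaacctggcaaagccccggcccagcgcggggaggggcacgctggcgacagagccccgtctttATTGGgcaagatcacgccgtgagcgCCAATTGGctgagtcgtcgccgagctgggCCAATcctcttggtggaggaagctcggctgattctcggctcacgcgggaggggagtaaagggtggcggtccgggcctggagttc
STARD4: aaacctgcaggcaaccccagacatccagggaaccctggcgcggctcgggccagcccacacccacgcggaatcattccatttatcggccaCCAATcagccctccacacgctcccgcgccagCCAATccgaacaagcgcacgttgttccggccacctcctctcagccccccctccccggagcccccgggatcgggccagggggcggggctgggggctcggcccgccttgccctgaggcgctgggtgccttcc
IDI1: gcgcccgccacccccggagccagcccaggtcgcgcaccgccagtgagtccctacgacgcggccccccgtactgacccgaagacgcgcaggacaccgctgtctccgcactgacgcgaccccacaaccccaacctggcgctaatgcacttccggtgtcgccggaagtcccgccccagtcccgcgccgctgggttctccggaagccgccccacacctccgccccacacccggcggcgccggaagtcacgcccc
LBR: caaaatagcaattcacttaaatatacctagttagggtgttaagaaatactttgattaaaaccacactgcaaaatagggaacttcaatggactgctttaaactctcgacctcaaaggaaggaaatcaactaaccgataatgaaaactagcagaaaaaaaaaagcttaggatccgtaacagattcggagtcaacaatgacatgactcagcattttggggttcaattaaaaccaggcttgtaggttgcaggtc
MSMO1 holds 4 CCAAT boxes, beginning 185, 139, 76 and 34 bases before the start. NSDHL holds 5, of which those at 113 and 110 overlap on opposite strands. STARD4 has 2, at 161 and 130, and INSIG1 has 1 at 170 with a CACGTG at 55. Neither IDI1, which fell, nor LBR, which rose, has a match in this window.

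A promoter was found for 28 of the 31 members; FDFT1, SQLE and FASN had no entry. CCAAT on either strand occurred in 18 of 28 (64.3%), against 33.0% of 27305 promoters and 34.9% of the 13071 that belong to genes in the count tables. Among the called members it was present in 6 of the 8 that fell and in 0 of the 2 that rose, beside the 18 of 28 over all members. GGGCGG, the core of the SP1 site, occurred in 25 of 28, against 60.5% of promoters of genes in the tables. CACGTG was found in 3 (SC5D, INSIG1 and SCAP), against 8.15%, and the sterol element written TCACNCCAC in 1 (SREBF2), against 0.91%. Of the members that fell and of those that rose, GGGCGG was in 7 of 8 and 1 of 2. CACGTG was in 2 of 8 and 1 of 2. A link between a motif and the direction of change was not tested. None of these 4 motifs contains another, each was searched on both strands, and a match is a description of letters, not a bound site.

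**Figure D1:**
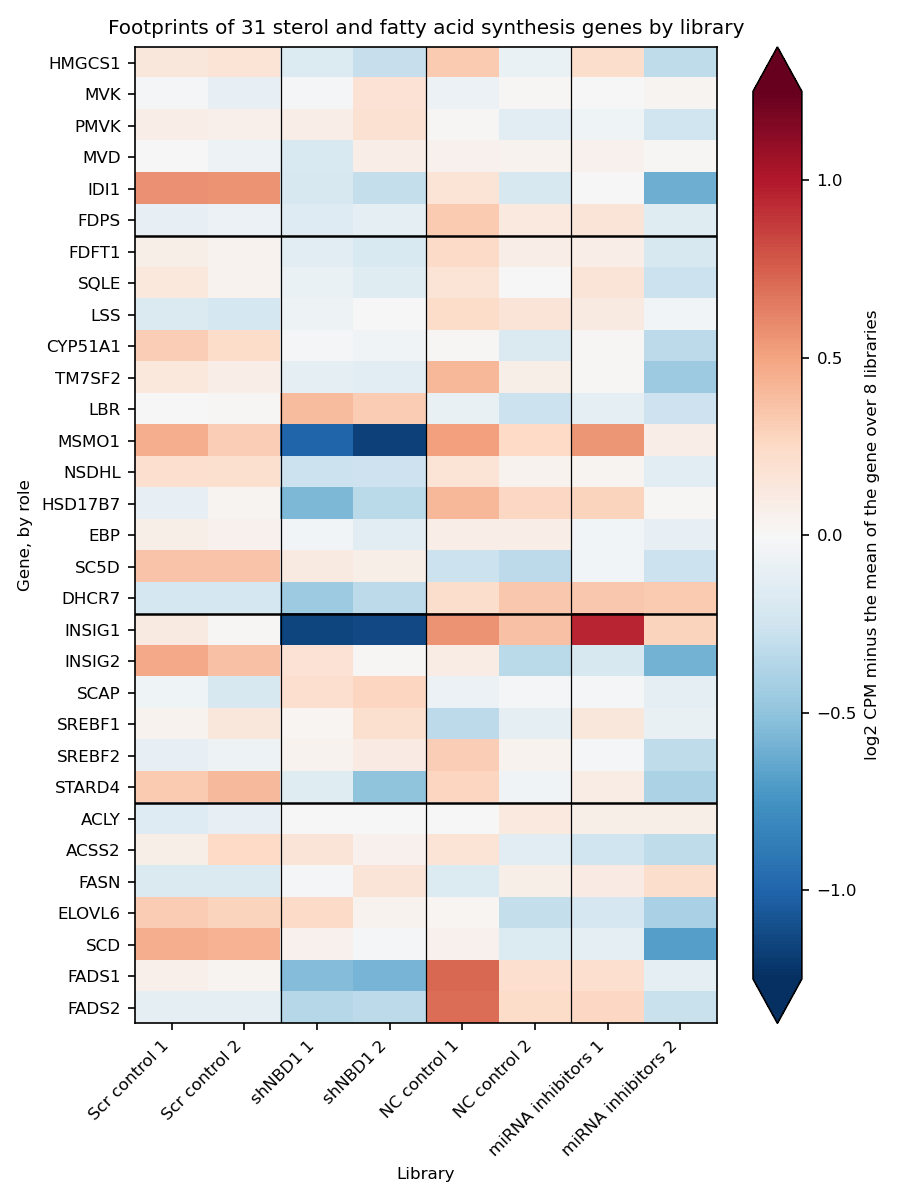
Heat map of the 31 members (rows, grouped by role) in the 8 libraries (columns); colour is the log2 CPM of a library minus the gene's mean over all libraries. The darkest blue cells are MSMO1 and INSIG1 with shNBD1, where they lie between 19.3 and 26.2 CPM while their other 6 libraries lie between 46.0 and 111 CPM.

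In the mevalonate steps, 1 of 6 measured members fell and none rose (16.7%, against the 18.3% of all genes). IDI1, which interconverts the isoprenoid building blocks, was at 235 and 233 CPM in Scr and 138 and 129 CPM with shNBD1. The libraries did not overlap, and the change was -0.82 ± 0.17 (adjusted p = 0.00844). HMGCS1, the synthase that commits acetyl units to the route, was at 479.8 and 490.1 CPM against 386 and 356 CPM. Its shNBD1 libraries were both lower, but the value of -0.39 ± 0.16 was not called (adjusted p = 0.118). MVK, PMVK, MVD and FDPS, the kinases, decarboxylase and prenyl synthase that follow, had values between -0.05 and 0.15.

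From squalene to cholesterol, 4 of 12 members fell and 1 rose (41.7%). NSDHL acts with MSMO1 in removing the methyl groups. It was at 109 and 108 CPM in Scr and 78.0 and 78.2 CPM with shNBD1, and the change of -0.47 ± 0.08 was called (adjusted p = 0.00352). HSD17B7, the reductase of the same demethylation cycle, was at 22.3 and 24.5 CPM and then 16.1 and 18.9 CPM, a change of -0.41 ± 0.13 (adjusted p = 0.048). With MSMO1, all 3 listed enzymes of that cycle were called lower. SC5D, the sterol desaturase late in the pathway, stood at 145 and 146 CPM and then at 123 and 119 CPM, a change of -0.26 ± 0.08 (adjusted p = 0.0496) just inside the threshold. HSD17B7 has close pseudogene copies, and how reads that match several places were counted is not given in the sources used here.

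LBR and TM7SF2 both carry sterol C14 reductase activity, LBR as a protein of the inner nuclear membrane that also binds lamin B. LBR was at 371 and 375 CPM in Scr and 489 and 463 CPM with shNBD1. It rose by 0.35 ± 0.08 (adjusted p = 0.0113), with no overlap. TM7SF2 was at 50.7 and 49.0 CPM and then 42.4 and 41.8 CPM, an uncalled -0.24 ± 0.15 (adjusted p = 0.269). The test of each gene was made separately, and the difference between these 2 was not tested.

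The other 6 members of this stretch were not called. CYP51A1, the lanosterol demethylase, was nearest to the threshold, with 203 and 194 CPM in Scr, 163 and 160.0 CPM with shNBD1 and a value of -0.30 ± 0.10 (adjusted p = 0.0728). FDFT1 (squalene synthase), SQLE (squalene epoxidase), EBP (sterol isomerase) and DHCR7 (which can make cholesterol in the last step) had values from -0.22 to -0.15. LSS, which folds squalene epoxide into lanosterol, was the other positive value beside LBR, at 0.16 ± 0.07.

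Among the 6 genes of SREBP control and sterol transport, 2 fell and 1 rose (50%, against the 18.3% of all genes). SCAP was at 41.3 and 37.2 CPM in Scr and 49.3 and 51.6 CPM with shNBD1, a rise of 0.36 ± 0.09 (adjusted p = 0.0167). STARD4, which carries cholesterol between membranes, was at 29.2 and 30.9 CPM and then at 21.0 and 16.4 CPM. It fell by 0.69 ± 0.17 on the log2 scale (adjusted p = 0.0202), with more distance between its shNBD1 replicates than between its controls. The transcription factors themselves were not called: SREBF2 had 0.15 ± 0.11 (adjusted p = 0.34) and SREBF1 0.02 ± 0.11 (adjusted p = 0.916).

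Of the 7 fatty acid genes, FADS1 alone was called (14.3%, against the 18.3% of all genes). This delta-5 desaturase of polyunsaturated fatty acids stood at 113 and 111 CPM in Scr and 74.1 and 72.1 CPM with shNBD1. The replicates lay close together, and the change was -0.61 ± 0.15 (adjusted p = 0.0188). Its neighbour FADS2, the delta-6 desaturase, was at 187 and 187 CPM and then 158 and 161 CPM, an uncalled -0.23 ± 0.17 (adjusted p = 0.374). The annotated spans of these genes overlap on chromosome 11 (61799627 to 61817003 for FADS1 and 61816203 to 61867354 for FADS2, GRCh38.p14), and whether counting used strand is not given, so reads in the overlap are uncertain.

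SCD, the delta-9 desaturase that makes oleate, was at 728 and 719 CPM in Scr and 552 and 523 CPM with shNBD1, a value of -0.43 ± 0.15 just outside the threshold (adjusted p = 0.0669). FASN, the multi-enzyme that builds palmitate, went the other way, from 1973 and 1981 CPM to 2224 and 2500.3 CPM, with 0.26 ± 0.09 (adjusted p = 0.0782). Both had libraries that did not overlap. ACLY, which supplies cytosolic acetyl-CoA, had 0.13 ± 0.07, and ACSS2 and ELOVL6 had values of -0.06 and -0.16. FDPS and SCD, like HSD17B7, have pseudogene copies that could share their reads.

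Set beside all 8 libraries, the called members fell into different patterns. For MSMO1, INSIG1, NSDHL, FADS1 and HSD17B7, both shNBD1 libraries were below the other 6, and for LBR and SCAP both were above the other 6. IDI1, STARD4 and SC5D were below Scr with shNBD1 but not below all libraries of the inhibitor arm. In that arm IDI1 lay between 104 and 179 CPM, a range that holds both shNBD1 libraries. STARD4 lay between 17.8 and 28.1 CPM, with 1 shNBD1 library inside that range and the other, at 16.4 CPM, below it. SC5D lay between 90.3 and 111 CPM, with both shNBD1 libraries above. These patterns were read after the values were seen and were not tested.

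**Figure D2:**
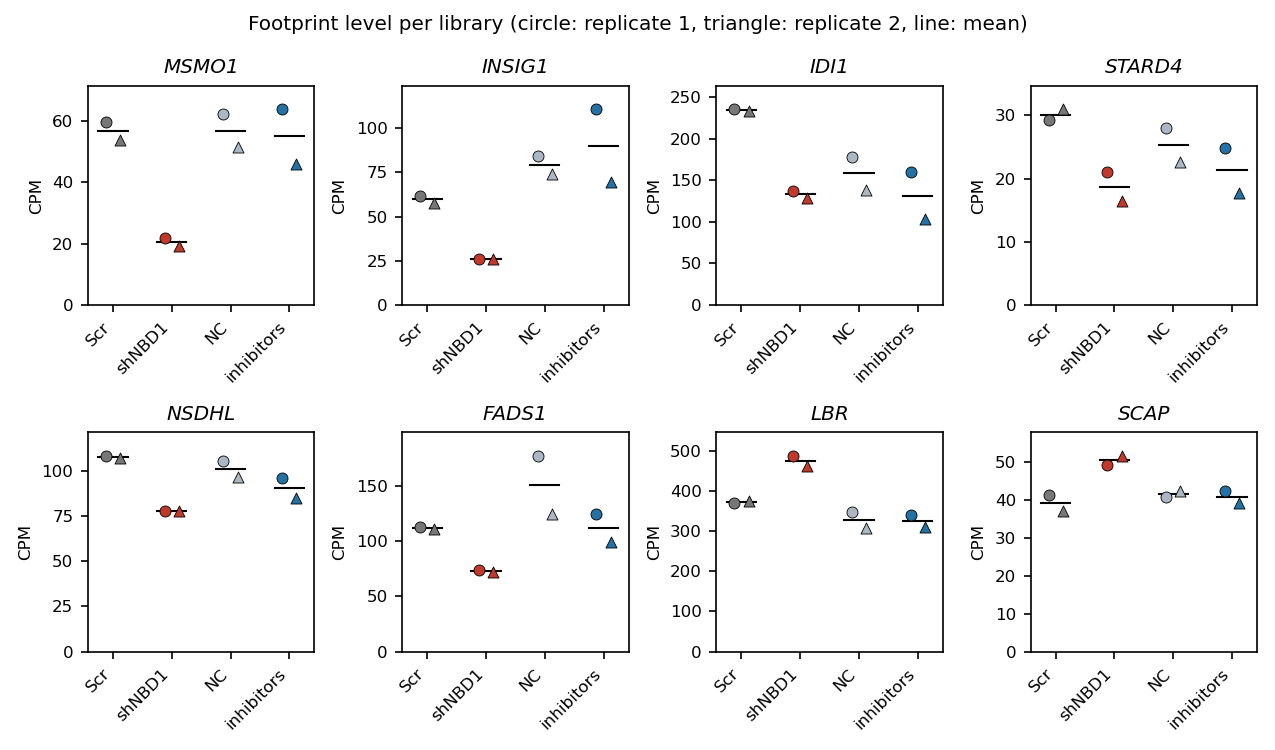
Footprint level (CPM, vertical axes from 0) of 8 called members in each library, by group; circles are replicate 1, triangles replicate 2 and lines the group mean (n = 2). In MSMO1, INSIG1, NSDHL and FADS1 both shNBD1 points lie under all others, in LBR and SCAP above all others, and in IDI1 and STARD4 at least 1 lies within the range of the inhibitor arm.

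The number of calls rested on having both replicates of each group. Leaving out Scr replicate 1 left 2 members called, Scr replicate 2 left 3, shNBD1 replicate 1 left 4 and shNBD1 replicate 2 left 2, while 3.92%, 5.27%, 7.52% and 4.56% of all genes were called in those fits. MSMO1 and INSIG1 were called in each of them, with adjusted p up to 0.0113 and 0.032. NSDHL lost its call without Scr replicate 1 and without shNBD1 replicate 2, STARD4 in each fit except that without shNBD1 replicate 1, and IDI1, LBR, SCAP, FADS1, HSD17B7 and SC5D in all 4. DESeq2 and a fit on total counts also left HSD17B7 and SC5D without a call, total counts left SCAP without a call, and SC5D lost it under 3 further settings. A fit on the 4 libraries of this arm alone called 24 members, 18 lower and 6 higher, with 41.9% of all genes called. In that fit FADS2 had -0.22 ± 0.05 and SCD -0.43 ± 0.04, where the main fit gave SEs of 0.17 and 0.15.

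**Figure D3:**
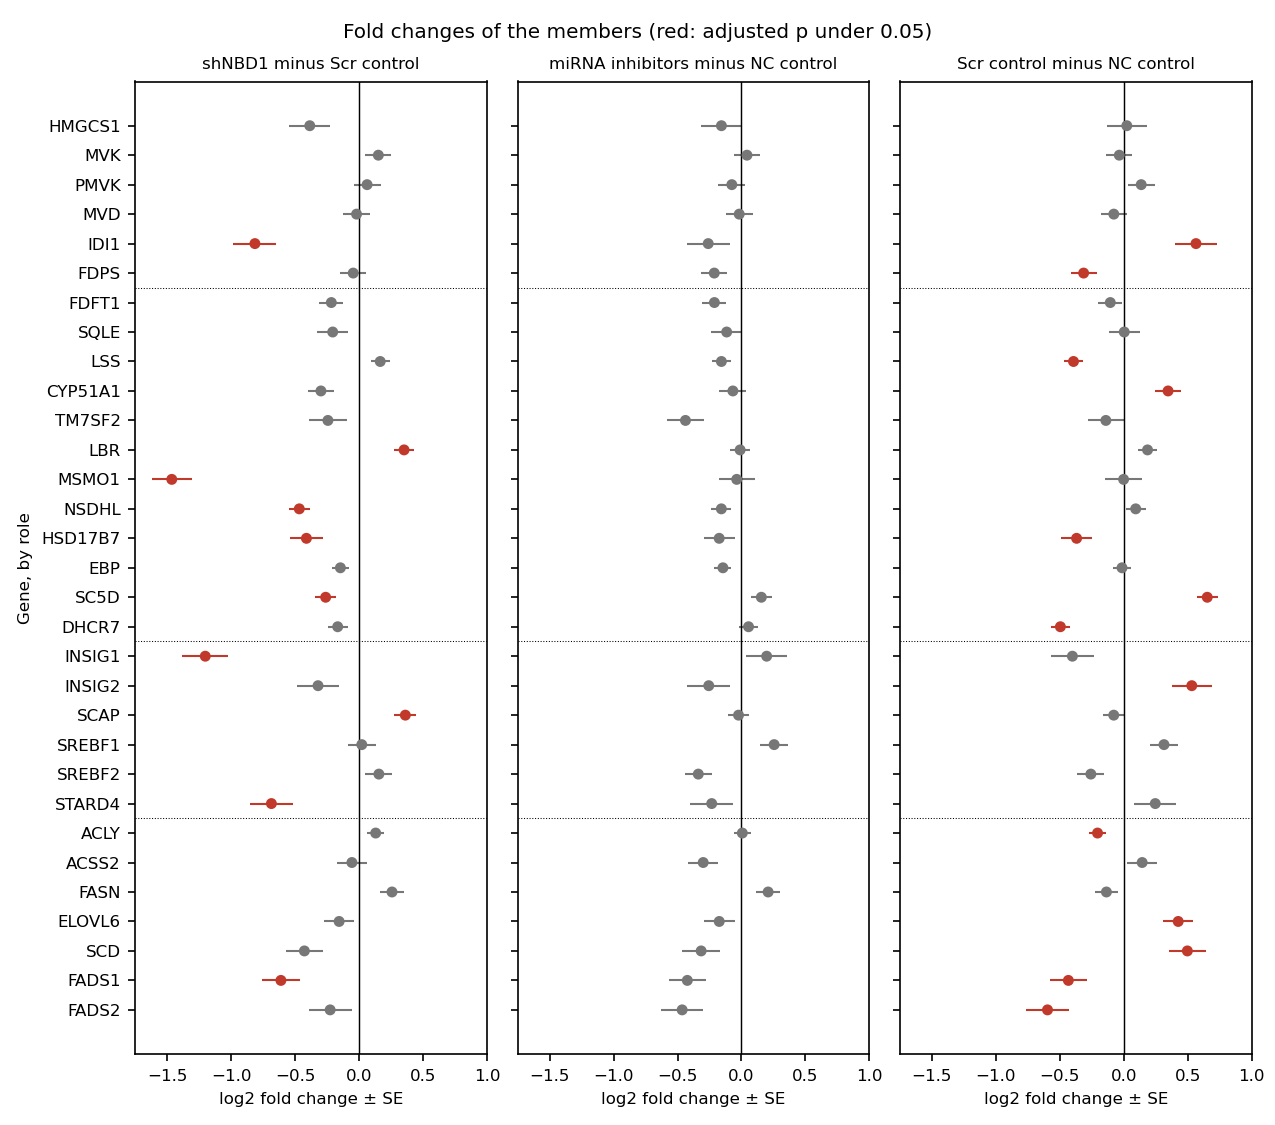
Log2 fold change ± SE (horizontal axes) of each member (rows, by role) for shNBD1 against Scr, the miRNA inhibitors against the NC control, and Scr against the NC control; red points passed an adjusted p of 0.05. MSMO1 (-1.47) and INSIG1 (-1.20) lie farthest from 0 with shNBD1, no point is red with the inhibitors, and 13 are red between the controls.

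Genes next to these pathways were counted from 4 further lists. Of 16 other genes of fatty acid elongation, desaturation and supply, 5 fell and none rose with shNBD1 (31.2%, against 18.3% of all genes). SCD5, another delta-9 desaturase, went from 60.9 and 58.7 CPM to 29.6 and 29.6 CPM, a change of -1.02 ± 0.09 (adjusted p = 7.34e-05). ELOVL7, an elongase of saturated chains, went from 29.0 and 28.6 CPM to 12.3 and 13.9 CPM, a change of -1.13 ± 0.11 (adjusted p = 1.34e-04). ACSL4, which loads arachidonate onto coenzyme A, went from 87.7 and 87.9 CPM to 53.5 and 52.8 CPM, a change of -0.72 ± 0.07 (adjusted p = 1.74e-04). All 3 were called in each of the 12 alternatives. Of 9 genes of SREBP processing and sterol sensing, only MBTPS1, the protease that first cuts SREBPs in the Golgi, was called (11.1%). Its change was 0.29 ± 0.08 (adjusted p = 0.0293). That call was lost under DESeq2, on total counts and with any of the 4 libraries left out. None of 11 isoprenoid branch enzymes was called by the quasi-likelihood test, with 1 at an unadjusted p under 0.05. Of 15 genes of sterol transport, storage and LXR signalling, 13.3% were called. GRAMD1A rose by 0.39 ± 0.07 (adjusted p = 0.00332) and NPC2 fell by 0.36 ± 0.09 (adjusted p = 0.0202). GRAMD1A was not called without Scr replicate 1 (adjusted p = 0.0656), and NPC2 was not called with any of the 4 libraries left out (adjusted p up to 0.138).

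The second comparison asks the same of cells given miRNA inhibitors and their NC control. No member was called, where 0.12% of all genes were, 0.0376% higher and 0.0827% lower. DESeq2 also called 0 members, and 8 of 31 had an unadjusted p under 0.05, against 16.4% of all genes. The median change was -0.16, beside 0.007 over all genes, and 24 members had a negative value. Both inhibitor libraries lay below both controls for 6 members and above them for 2, against 20.3% and 20.5% of all genes. None of the genes of the 4 neighbouring lists was called either by edgeR, with an unadjusted p under 0.05 in 1 of 9 SREBP processing genes, 1 of 11 isoprenoid enzymes, 3 of 16 other fatty acid genes and 3 of 15 sterol transport genes.

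The 6 members with the smallest p were SREBF2, TM7SF2, FADS1, FADS2, ACSS2 and SREBF1. SREBF2, the factor that favours sterol genes, was at 248 and 206 CPM in the NC control and 197 and 161 CPM with inhibitors, a value of -0.34 ± 0.11 (adjusted p = 0.176). TM7SF2 was at 61.5 and 48.4 CPM and then 46.7 and 33.7 CPM, a value of -0.44 ± 0.14 (adjusted p = 0.188). In both genes the gap between the replicates of a group was close in size to the gap between the groups. FADS1 was at 177 and 124 CPM and then 125 and 99.7 CPM (-0.42 ± 0.15, adjusted p = 0.201), and FADS2 at 328 and 238 CPM and then 242 and 167 CPM (-0.46 ± 0.17, adjusted p = 0.212). In each, replicate 1 of the inhibitors was level with replicate 2 of the control, and ACSS2, which makes acetyl-CoA from acetate, had -0.30 ± 0.12 (adjusted p = 0.252), from 33.7 and 27.2 to 25.3 and 24.1 CPM. SREBF1, the factor that favours fatty acid genes, had the largest positive value, 0.26 ± 0.11 (adjusted p = 0.284), with 33.6 and 38.6 CPM in the control and 46.4 and 39.3 CPM with inhibitors.

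The pair that stood out with shNBD1 did not do so here. MSMO1 was at 62.0 and 51.3 CPM in the control and 63.6 and 46.0 CPM with inhibitors, a value of -0.04 ± 0.14 (adjusted p = 0.922). INSIG1 was at 84.6 and 73.9 CPM and then 111 and 69.8 CPM, a value of 0.20 ± 0.16 (adjusted p = 0.568). In both, the inhibitor libraries fell on either side of the controls. INSIG2 and LBR had values of -0.26 ± 0.17 and -0.01 ± 0.08.

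Within the inhibitor arm the members moved with the replicate. In the NC control 24 of 31 were higher in replicate 1 than in replicate 2, and with inhibitors 29 of 31 were. There were 24 members higher in replicate 1 in both groups, against 35.1% of all genes, and 2, MVK and FASN, lower in both. The median difference of replicate 1 from replicate 2 was 0.17 in the control and 0.26 with inhibitors, at least the size of the median difference between the groups. In the shRNA arm 11 members were higher in replicate 1 in both groups, against 25.8% of all genes, with medians of 0.016 and 0.018. IDI1 shows the pattern: 179 and 138 CPM in the NC control and 159.5 and 104 CPM with inhibitors. Nothing in the labels says that equal numbers mark a shared batch. Leaving out NC control replicate 1 gave a median of -0.05 over the members, and leaving out its replicate 2 gave -0.20. Among the inhibitor libraries, the median was -0.29 when replicate 1 was left out and -0.01 when replicate 2 was. Those fits called 0, 6, 9 and 0 members, while 0.0295%, 4.72%, 6.86% and 0.0443% of all genes were called.

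**Figure D4:**
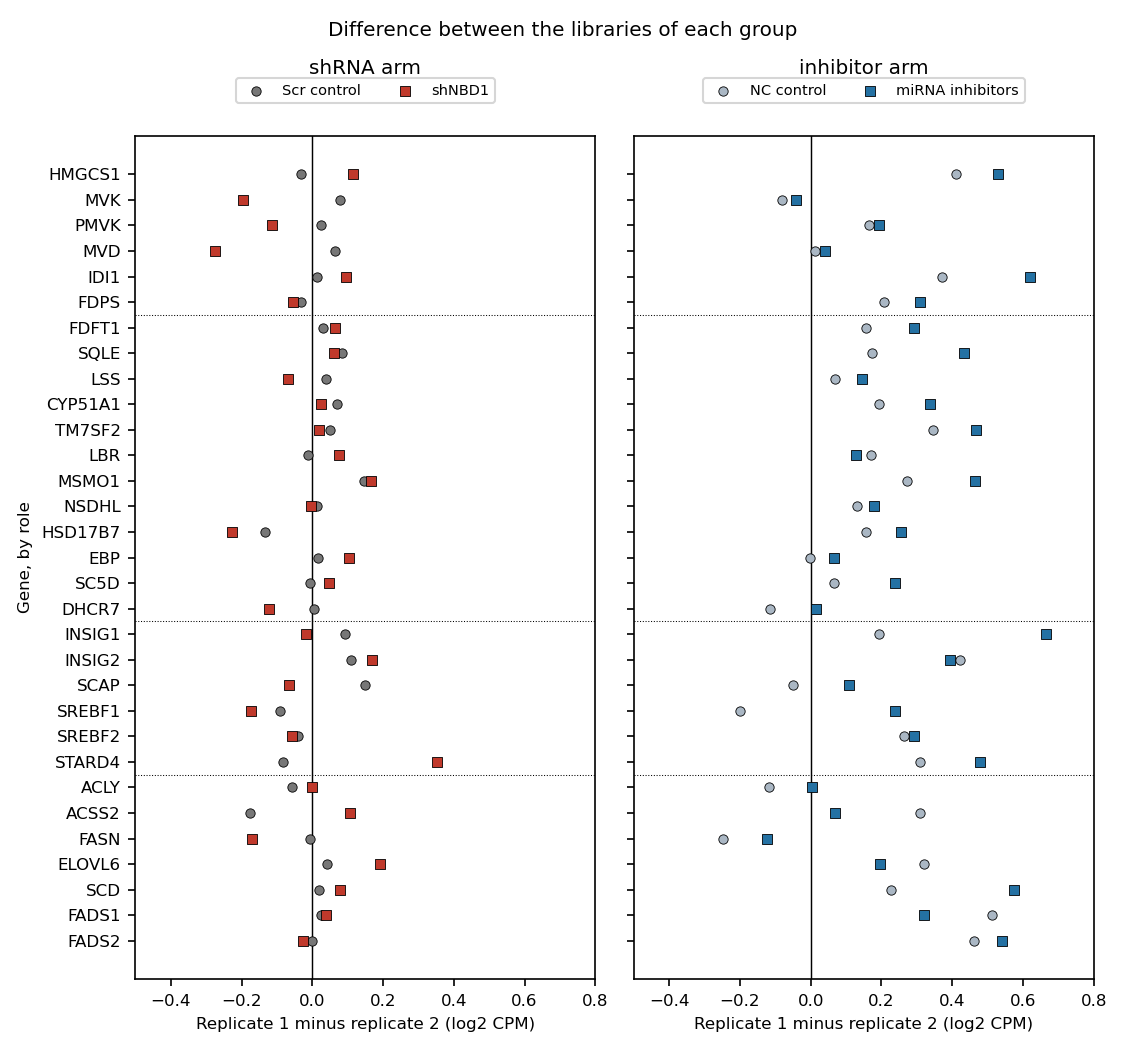
Log2 difference of replicate 1 from replicate 2 for each of the 31 members, by group, with each point a member. Points are centred near 0 in the shRNA arm (medians 0.016 and 0.018) and lie mostly above 0 in the inhibitor arm (medians 0.17 and 0.26).

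A further comparison tests whether the shNBD1 effect differs from the inhibitor effect. MSMO1 and INSIG1 were the members called, 2 of 31 (6.45%), against 7.44% of all genes (3.48% higher and 3.96% lower), so the share of members called was near the background. The difference was -1.43 ± 0.21 for MSMO1 (adjusted p = 0.00378) and -1.40 ± 0.24 for INSIG1 (adjusted p = 0.00858), lower with shNBD1 in each. MSMO1 was called in all 15 alternatives. INSIG1 was not called without Scr replicate 1, without shNBD1 replicate 1 or without shNBD1 replicate 2, with adjusted p up to 0.0632. Each of those 3 fits called 1 member, with 1.38%, 2.47% and 1.47% of all genes called, while leaving out NC control replicate 2 gave 4 calls, the first inhibitor library (replicate 1) 5 and the other (replicate 2) 4, with 7.92%, 8.38% and 8.03% of all genes called.

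The next members were not called. SC5D had -0.42 ± 0.12 (adjusted p = 0.0566), LBR 0.36 ± 0.11 (adjusted p = 0.0706), SREBF2 0.49 ± 0.15 (adjusted p = 0.0719) and SCAP 0.38 ± 0.12 (adjusted p = 0.0816). Of the related pairs, INSIG2 had -0.07 ± 0.23, TM7SF2 0.19 ± 0.20, SREBF1 -0.24 ± 0.15, FADS1 -0.19 ± 0.21 and FADS2 0.24 ± 0.23. For IDI1, NSDHL, STARD4, FADS1 and HSD17B7, called with shNBD1, no difference from the inhibitor effect was called. Across the 31, 22 had a negative value with shNBD1, 24 with the inhibitors and 19 under both, and 4 had a positive value under both. The share of all genes with the same sign under both was not computed, so these counts are not read as a shared response. In the neighbouring lists, 18.8% of the other fatty acid genes and 11.1% of the SREBP processing genes were called. The sterol transport genes gave 6.67%, the isoprenoid enzymes 0% and all genes 7.44%. ACSL4 (-0.96), ELOVL7 (-1.04) and SCD5 (-0.81) were called lower and GRAMD1A (0.53) and RNF145 (0.58) higher for shNBD1 relative to the inhibitors. The first 3 were called in all 15 alternatives, while GRAMD1A and RNF145 were not called with any of the 4 libraries of the shRNA arm left out (adjusted p up to 0.0857 and 0.152), nor RNF145 on total counts.

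The last comparison sets the Scr control against the NC control, the 2 control groups, as the background against which each treatment was read. Here 13 of 31 members were called (41.9%), 6 higher and 7 lower in Scr, against 27.1% of all genes, 13.5% higher and 13.6% lower. The kind of control and whatever else separates the arms cannot be told apart. The Scr libraries also enter the comparisons of shNBD1 with Scr and of the treatments with each other, so these values share samples with them.

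SC5D was at 145 and 146 CPM in Scr and 94.5 and 90.3 CPM in the NC control, higher in Scr by 0.65 ± 0.08 (adjusted p = 4.51e-04). DHCR7 was at 66.0 and 65.7 CPM in Scr and 89.1 and 96.6 CPM in the NC control, a value of -0.50 ± 0.07 (adjusted p = 0.00126). These late steps of the pathway differed in opposite directions, and both were called in all 12 alternatives. LSS was lower in Scr, with 122 and 119 CPM against 162 and 155 CPM (-0.39 ± 0.07, adjusted p = 0.00366), and HSD17B7 was lower too, with 22.3 and 24.5 CPM against 31.8 and 28.5 CPM (-0.37 ± 0.12, adjusted p = 0.0442). CYP51A1 was higher, with 203 and 194 CPM against 167 and 146 CPM (0.35 ± 0.10, adjusted p = 0.0323).

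Among the isoprenoid-making steps, IDI1 was higher in Scr, with 235 and 233 CPM against 179 and 138 CPM (0.56 ± 0.17, adjusted p = 0.0296). FDPS, the farnesyl diphosphate synthase, was lower, with 211 and 215 CPM against 284 and 246 CPM (-0.31 ± 0.10, adjusted p = 0.0419). The 2 enzymes act in succession, and no libraries of the 2 groups overlapped in either. INSIG2 was higher in Scr, with 23.0 and 21.4 CPM against 17.6 and 13.1 CPM (0.53 ± 0.16, adjusted p = 0.0309), while INSIG1 had a negative, uncalled value (-0.40 ± 0.17, adjusted p = 0.0953). SREBF1 (0.31 ± 0.11) and SREBF2 (-0.26 ± 0.11) also had opposite signs without a call, as did LBR (0.19 ± 0.08) and TM7SF2 (-0.14 ± 0.14).

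Of the 7 fatty acid genes, 2 were higher and 3 lower in Scr (71.4%, against 27.1% of all genes). SCD was at 728 and 719 CPM against 553 and 472 CPM (0.50 ± 0.15, adjusted p = 0.0295), and ELOVL6, which elongates palmitate, at 44.6 and 43.4 CPM against 36.4 and 29.1 CPM (0.43 ± 0.12, adjusted p = 0.0243). FADS2 was at 187 and 187 CPM against 328 and 238 CPM (-0.60 ± 0.17, adjusted p = 0.0236), and FADS1 at 113 and 111 CPM against 177 and 124 CPM (-0.43 ± 0.15, adjusted p = 0.0491). Without NC control replicate 1, the library in which both were highest, FADS2 was at -0.35 (adjusted p = 0.121) and FADS1 at -0.16 (adjusted p = 0.333). ACLY was lower in Scr, with 848 and 882 CPM against 957 and 1038 CPM (-0.21 ± 0.07, adjusted p = 0.0396). MSMO1, the member that moved most with shNBD1, had -0.00 ± 0.14, with 59.4 and 53.7 CPM against 62.0 and 51.3 CPM.

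The called total of 13 fell to 3 without Scr replicate 1 and to 2 without Scr replicate 2, with 7.94% and 9.35% of all genes called in those fits. It was 8 under DESeq2 and 8 on total counts, with 17% and 23.8% of all genes called. Of the neighbouring lists, 5 of 11 isoprenoid enzymes were higher in Scr and none lower (45.5%, against 27.1% of all genes). FNTA, a farnesyltransferase subunit, was higher by 0.62 ± 0.12 (adjusted p = 0.00442). Of 16 other fatty acid genes 6 were higher and 1 lower (43.8%), with the citrate carrier SLC25A1 at 0.50 ± 0.12. Of 9 SREBP processing genes 2 were higher (22.2%), with the protease MBTPS2 at 0.35 ± 0.08. Of 15 sterol transport genes 26.7% were called. There 1 was higher, the lysosomal lipase LIPA at 0.46 ± 0.11, and 3 lower, with GRAMD1A at -0.41 ± 0.07. Without Scr replicate 1, FNTA, SLC25A1, MBTPS2 and LIPA were not called, nor were MBTPS2 and LIPA without Scr replicate 2 or LIPA without NC control replicate 2, and GRAMD1A was called in all 12 alternatives. Of the marker genes, CD68 averaged 38.2 ± 0.344 CPM in Scr and 13.4 ± 2.44 CPM in the NC control, and ACTA2 305 ± 21.1 and 517 ± 21.4 CPM (SD, n = 2), while the sums over the marker list lay between 329 and 545 CPM in all libraries. The part of these markers in the members' values was not tested.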

How the data were processed

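Footprint libraries of 293T cells were prepared from cycloheximide lysates with a modified TruSeq Ribo Profile kit, per the labels' protocols. The tools named are cutadapt and Bowtie, with GRCh38 as the build, per the submitters' processing notes. For tool versions, the counter, rRNA removal, multi-mapped reads and strand, the sources used here give nothing. Each deposited file lists unnormalized whole-number counts per feature; the 18037 features were summed to 17179 symbols, and an unlisted feature was taken as 0.

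Tests used R 4.3.3 with edgeR 4.0.16 (and limma 3.58.1): filterByExpr (minimum count 10, minimum total 15), TMM, and a quasi-likelihood fit of the 4 groups over all 8 libraries (4 residual degrees of freedom), adjusted by Benjamini-Hochberg over 13306 genes at 0.05. DESeq2 1.42.0, other scalings and filters, a replicate block and leaving out each library were alternatives. The steps were tested on simulated counts. They recovered 16% of 1.25-fold changes for shNBD1 and 14% for the inhibitors, and 68% of 1.5-fold changes in each. Of the calls, 11 of 150 for shNBD1 and 19 of 160 for the inhibitors were false. The simulated counts had the same spread per gene in both arms, while the real inhibitor-arm replicates differed more than the shRNA-arm replicates. The simulation therefore cannot tell how many changes of these sizes the inhibitor comparison would find. The members and lists were chosen with earlier results of these data known. Named were all members called, the 6 of smallest p where few were called, and up to 3 called genes of each other list. Marker genes VIM, KRT18, NEFM, CD68 and ACTA2 were chosen after their values were seen. Footprint density per coding length, which the design planned, was not computed, since no table of coding lengths was used here. Promoters came from RefSeq on GRCh38.p14.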

Additional observations from a re-analysis of the deposited data

Results flagged for a closer look

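The effect of shNBD1 differed from that of the miRNA inhibitors for MSMO1, by -1.43 ± 0.21 on the log2 scale, and for INSIG1, by -1.40 ± 0.24, by the interaction term of edgeR's quasi-likelihood test (adjusted p = 0.00378 and 0.00858). Both shNBD1 libraries were below both Scr libraries in each gene, and the inhibitor libraries lay on either side of their controls.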

How the results depend on the processing

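With shNBD1 the count of called members was 24 in a fit on that arm's 4 libraries and between 2 and 4 with each library left out. For the inhibitors it was between 0 and 9 with a library left out, and 3, all higher, without both NC control replicate 1 and inhibitor replicate 2, a setting chosen after seeing the data. For the difference of effects it was 4 with no filter on low counts and between 1 and 5 with a library left out. Between the controls it was 8 on total counts, 8 under DESeq2, and between 2 and 11 with a library left out. The other settings, apart from the block below, kept each count within 1.5 times. The share of all genes called was 41.9% in the 4-library fit for shNBD1. For the difference it was 6.58% with no filter, against 7.44% in the main fit. Between the controls it was 23.8% on total counts and 17% under DESeq2. A fit with a library left out has 1 library in a group, so its count alone says little about the members. Without both NC control replicate 1 and inhibitor replicate 2, the members' median change was 0.026.

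The replicate number as a block gave 15 called members with shNBD1, 4 with the inhibitors (FADS1, FADS2, SREBF2 and TM7SF2, all lower), 8 for the difference and 17 between the controls. The shares of all genes called under the block were 25.6%, 5.07%, 14% and 36.1%. Deviations of same-numbered libraries correlated across genes at 0.0152 in the shRNA arm and 0.42 in the inhibitor arm, and with 2 pairs this does not show that the numbers pair the libraries.

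Values under each setting were kept for every member with shNBD1 and, elsewhere, only for the members named for that comparison. Among those, values that changed sign were called neither as reported nor under the setting that turned them. Other members are not covered by this statement or by the ranges below. For the inhibitors, FADS1, FADS2, IDI1 and INSIG1 were called under other settings. With shNBD1, SREBF1 was -0.00896 on total counts. With a library left out, SREBF1 ranged from -0.0674 to 0.105, ACSS2 from -0.141 to 0.0330 and MVD from -0.163 to 0.111. For the inhibitors, over the settings that leave out 1 library or both libraries named above, the ranges were -0.657 to 7.67e-04 for FADS1, -0.776 to 0.0254 for FADS2, -0.196 to 0.580 for INSIG1, -0.499 to 0.137 for INSIG2, -0.0943 to 0.138 for LBR, -0.623 to 0.206 for IDI1, -0.312 to 0.308 for MSMO1, -0.330 to 0.0190 for HSD17B7, -0.0938 to 0.0169 for SCAP and -0.523 to 0.133 for STARD4. For the difference of effects they were -0.291 to 0.180 for INSIG2, -0.460 to 0.0456 for FADS1 and -0.00658 to 0.552 for FADS2, and between the controls -0.301 to 0.0417 for TM7SF2. Without both inhibitor-arm libraries, MSMO1 stood at 0.308 and IDI1 at 0.206. The cause was not tested.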
